A study of Sus scrofa with 18 samples.

Results

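The 360-day stage was the oldest of 6 stages of shoulder backfat sampled from Ningxiang pigs, an indigenous fat-type breed, and it consisted of 3 of the 18 libraries, chosen by the age in their labels. RNA depleted of ribosomal RNA was sequenced in 1 library per pig, with 3 pigs at 360 days and 3 at each of 60, 120, 180, 240 and 300 days. All the pigs were castrated, males according to the study's methods, and were raised under one set of standard conditions. The 3 pigs of a stage were full sibs and the stages were half-sib families, so age and family cannot be told apart. The study's methods do not give the day and hour of slaughter or the delay to sampling for each pig. Whether these differed between stages was not tested. The question here was which genes set the oldest stage apart, and it was answered by the contrast of 360 days with the mean of the 5 other stage means.

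Subcutaneous fat holds adipocytes, which store triglyceride and secrete hormones such as leptin, together with progenitors, macrophages and vessels. Cells that receive a stimulus, such as a growth factor, a cytokine or a mechanical stress, switch on a small set of immediate early genes within minutes, most of them transcription factors of the FOS, JUN and EGR families. The same stimuli induce feedback genes, which remove kinase activity, cytokine signalling or unstable messenger RNA again, and both sets of messages are short-lived.

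Total counts per library were between 74840484 and 84236689 at 360 days (median 82284881) and between 74077094 and 81530168 in the 15 other libraries (median 78176799). In some libraries, most of all in 360 days replicate 3, this total was above the number of mapped reads given in the study's supplement, so it is not a number of reads; the reason was not tested. One of the 3 libraries stood apart. In 360 days replicate 3, the 10 loci with the most counts took 19.0% of all counts and loci of structural RNA families 17.7%, against 9.37% to 14.3% and 7.36% to 11.1% in the other 17 libraries. A further 7 libraries went against the male sex given in the study's methods. These were 2 at 60 days, 1 at 120 days, all 3 at 180 days and 1 at 300 days. They had between 0.00958 and 0.613 FPKM (fragments scaled to transcript length and sequencing depth) summed over the Y-linked genes EIF1AY, KDM5D and ZFY. The 3 libraries at 360 days had 9.65, 10.2 and 6.65 FPKM. Each main count is therefore also given without 360 days replicate 3 and without those 7 libraries. The fit without those 7 libraries held no library of 180 days and, of 60 days, only replicate 2. Its contrast therefore left 180 days out. The adipocyte markers ADIPOQ, PLIN1, LEP, FABP4, CIDEC and LIPE, summed, reached 391, 570 and 561 FPKM at 360 days, against 349 to 660 FPKM in the other stages (median 546). Their sum was thus high at every age, but LEP alone averaged only 1.08 FPKM at 60 days.

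Of 27883 loci, 19470 reached 0.5 FPKM in at least 3 libraries and were tested with edgeR's quasi-likelihood test. A locus was called when its Benjamini-Hochberg adjusted p was at most 0.05 and its log2 fold change at least 1 in size. At 360 days 250 loci were called (1.28% of those tested), 191 higher (0.981%) and 59 lower (0.303%). The fold change was above 0 in 9836 of the loci tested (50.5%), so the whole distribution did not lean upward while the calls did. The 3 libraries of 360 days lay above all 15 others in FPKM at 101 loci (0.519%) and below all of them at 157 (0.806%); on TMM-scaled CPM (counts scaled to library size) these were 168 (0.863%) and 111 (0.57%). Without 360 days replicate 3, 42 loci were called higher and 1 lower (0.221% in all), and without the 7 libraries low in Y-linked RNA 83 and 14 (0.498%). All 250 called loci kept their direction in both fits, as did 15994 and 17739 of all 19470 loci tested. Both fits reuse libraries of the main fit, so a kept direction is no independent support.

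**Figure D1:**
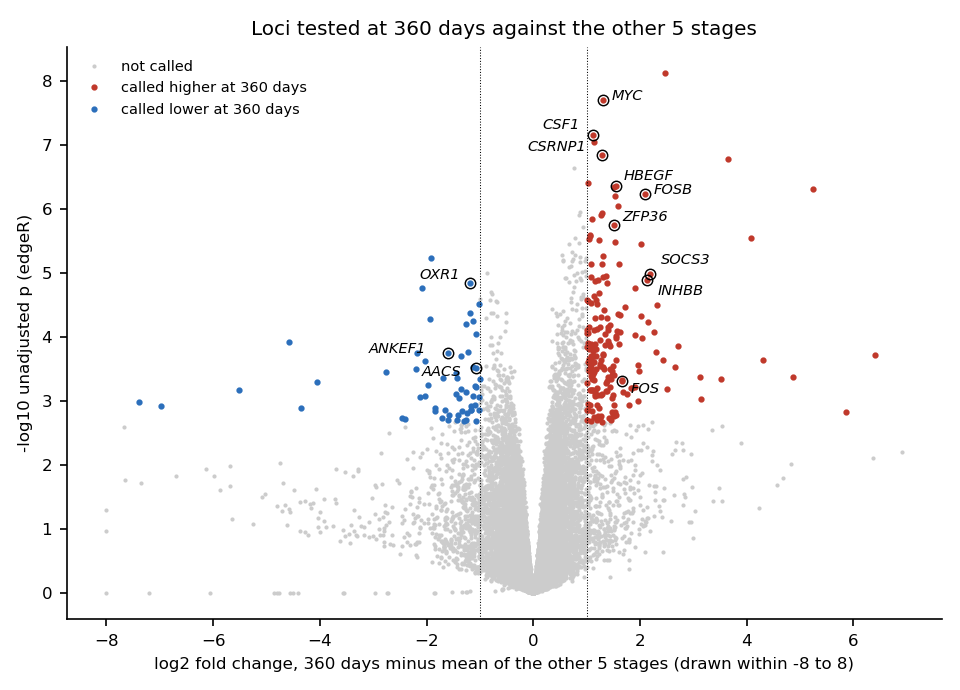
Each point is 1 of 19470 loci, with the log2 fold change of 360 days minus the mean of the other 5 stages on the x axis and the unadjusted p of edgeR as -log10 on the y axis. Red points are the 191 loci called higher at 360 days, blue points the 59 called lower, dotted lines mark a log2 fold change of 1 in either direction, and circles mark named genes.

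The calls were not a step at the last stage alone. Taken stage by stage in the same fit, 360 days had 597 loci higher (3.07%) and 398 lower (2.04%) than 60 days, 246 higher (1.26%) and 151 lower (0.776%) than 120 days, and 93 higher (0.478%) and 29 lower (0.149%) than 180 days. Against 240 and 300 days edgeR called 0 loci, with 574 and 507 loci at that fold change and p under 0.05 before adjustment (2.95% and 2.6%), and DESeq2 called 107 and 66 (0.55% and 0.339%). The 5 contrasts share the 360-day libraries. Among the 191 loci called higher, 360 days had the highest stage mean in 184 (96.3%, against 14.8% of all loci tested). In 104 of them 60 days had the lowest, against 2486 of all 19470 loci tested. The call itself selects loci with a high mean at 360 days and low means at the other stages. The 184 and the 104 are therefore no further evidence. The median log2 fold change of the 191 was 1.94 over 60 days, 1.49 over 120 days, 1.40 over 180 days, 0.92 over 240 days and 0.91 over 300 days. Stage means rose at every step from 60 to 360 days in 15 of the 191, and in 79 of all 19470 loci tested.

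Among the 42 gene lists, that of immediate early transcription factors had the largest share of called genes at 360 days. Of 23 listed genes 22 were tested, all 22 had a fold change above 0, and 12 were called higher (54.5%, against 1.28% of all loci), with a median log2 fold change of 1.06 against 0.00 over all loci. The 12 were FOS, FOSB, FOSL2, JUN, EGR1, EGR2, EGR3, IER2, IER3, MYC, MAFF and CSRNP1. The broader KEGG pathways of MAPK and TNF signaling, with members from the deposited annotation, had smaller shares. In the first, 6 of 211 tested genes were called higher (2.84%, median 0.14), and in the second 5 of 77 (6.49%, median 0.20). The summed level of the immediate early list was 536, 405 and 550 FPKM in the libraries of 360 days, against 151 to 368 FPKM in the 15 others (median 237), with no overlap. By stage the sum averaged 187 ± 6.59 FPKM at 60 days, 180 ± 46.0 at 120 days, 233 ± 78.7 at 180 days, 339 ± 26.1 at 240 days, 312 ± 49.4 at 300 days and 497 ± 79.8 at 360 days (SD, n = 3 each). The summed level, in which abundant genes such as FOS weigh most, thus had higher means at 240 and 300 days than at 60 to 180 days, and its highest at 360 days. Over single genes, the median log2 fold change of the list was 1.58 over 60 days, 1.29 over 120 days, 1.06 over 180 days, 0.53 over 240 days and 0.69 over 300 days.

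FOS, a partner in the AP-1 transcription factor (MSTRG.20584, chromosome 7, 98449508 to 98458622 of the Sus scrofa V11.1 genome), was at 114, 87.3 and 125 FPKM at 360 days, against 6.98 to 70.5 FPKM in the other libraries (median 40.2). All 3 libraries lay above the 15 others, and the log2 fold change was 1.67 ± 0.378 (SE, edgeR adjusted p = 0.0242). FOSB, the closest relative of FOS (chromosome 6, 51837689 to 51847951), was at 72.7, 33.2 and 71.2 FPKM, against 4.22 to 43.3 (median 11.8), so that replicate 2 fell within the range of the others. Its log2 fold change of 2.10 ± 0.257 (adjusted p = 0.000923) was the largest of the list. JUN, the usual partner of FOS in AP-1, is typed as a pseudogene in the deposited annotation and was at 48.3, 25.9 and 37.2 FPKM, against 9.14 to 31.8 (median 16.3; log2 fold change 1.14 ± 0.234, adjusted p = 0.0161). FOSL2, a longer-lived member of the family, was almost the same in the 3 pigs, at 17.6, 17.1 and 17.3 FPKM against 4.65 to 16.4 (log2 fold change 1.08 ± 0.162, adjusted p = 0.003).

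MYC, the transcription factor that drives growth and ribosome production, carried the lowest adjusted p of all genes named here. It was at 7.01, 7.55 and 9.10 FPKM at 360 days, against 2.34 to 5.70 FPKM (median 3.21), with a log2 fold change of 1.30 ± 0.123 (adjusted p = 0.000195; MSTRG.14543, chromosome 4, 12452756 to 12460424). Its stage means were 2.70 ± 0.161 FPKM at 60 days, 2.66 ± 0.308 at 120 days, 3.23 ± 0.423 at 180 days, 4.75 ± 0.822 at 240 days, 4.46 ± 0.838 at 300 days and 7.89 ± 1.08 at 360 days (SD, n = 3 each). Against 240 and 300 days alone its log2 fold changes were 0.80 and 0.90, neither past the threshold (adjusted p = 0.194 and 0.233). CSRNP1, a nuclear protein first described as induced by AXIN1, had 5.93, 5.95 and 7.003 FPKM against 1.60 to 5.64 (log2 fold change 1.29 ± 0.141, adjusted p = 0.000529).

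The zinc finger factors EGR1, EGR2 and EGR3 were all called higher. EGR1 was at 48.9, 34.1 and 45.1 FPKM at 360 days, against 10.5 to 34.8 FPKM (median 18.4), with replicate 2 just inside the range of the others (log2 fold change 1.27 ± 0.165, adjusted p = 0.00133). EGR2, at 2.61, 2.10 and 2.38 FPKM against 0.572 to 1.94, did not overlap with the other libraries (log2 fold change 1.28 ± 0.193, adjusted p = 0.003). EGR3, at 2.481, 1.076 and 1.333 FPKM against 0.2277 to 1.585, overlapped in replicates 2 and 3 (log2 fold change 1.345 ± 0.266, edgeR adjusted p = 0.0132). Not every immediate early gene passed the test. The nuclear receptors NR4A1, NR4A2 and NR4A3 had log2 fold changes of 0.74, 0.40 and 0.36, and ATF3, a factor of the stress response, 0.55, and these 4 genes missed the threshold on the adjusted p (0.147 to 0.737). JUND, KLF4 and KLF6, with log2 fold changes of 0.82, 0.79 and 0.87, passed on the adjusted p (0.00627, 0.0189 and 0.00133) but not on the size of the change. FOSB, FOSL2, EGR1, EGR2, MYC and CSRNP1 stayed called whichever library was left out. The other 6 lost the call without 360 days replicate 3, JUN, EGR3 and IER3 also without 360 days replicate 1, and MAFF also without 60 days replicate 2 or 180 days replicate 1, and 8 of the list were called without the 7 libraries low in Y-linked RNA.

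**Figure D2:**
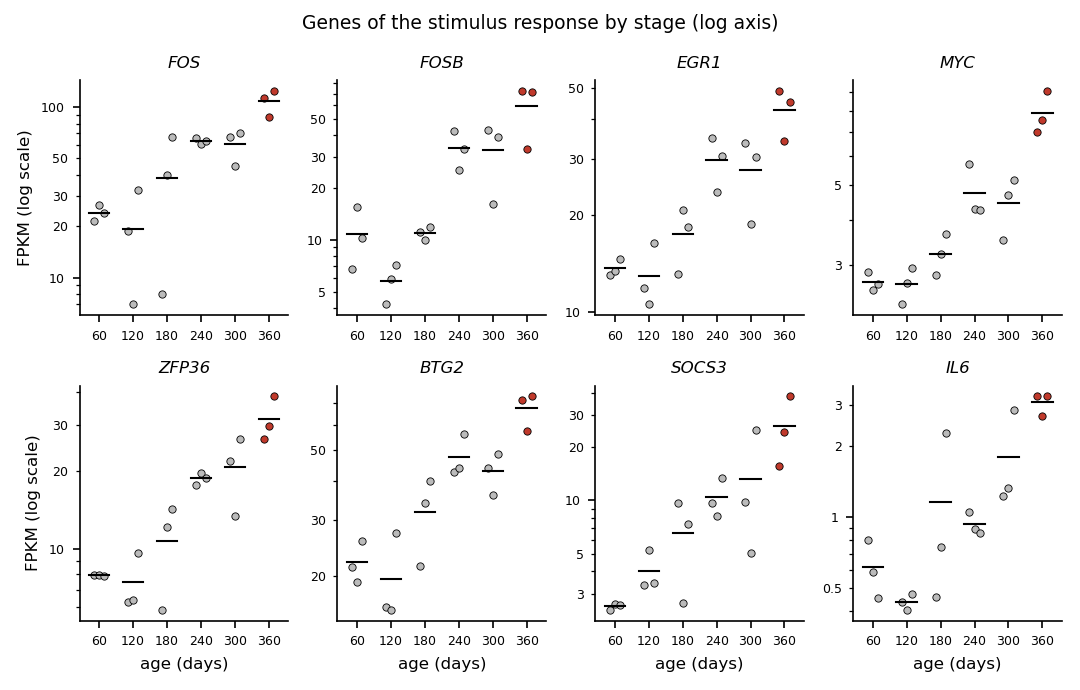
FPKM on a log axis against age in days for 8 genes, with a point for each library and a bar for the stage mean (n = 3 per stage); libraries of 360 days are red. For FOS, MYC, ZFP36 and BTG2 the 3 red points lie above the 15 grey ones, while for FOSB, EGR1, SOCS3 and IL6 they overlap with libraries of earlier stages.

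Feedback genes of stimulus signalling formed a further group. Of 28 listed genes 26 were tested, and 24 had a fold change above 0 (50.5% over all loci). In all 11 were called higher (42.3%, against 1.28% of all loci), with a median log2 fold change of 0.93. Their summed level was 387, 379 and 409 FPKM at 360 days, against 157 to 301 FPKM in the other libraries (median 218), again with no overlap. The called genes were ZFP36, DUSP5, SOCS3, NFKBIZ, BTG2, SIK1, GADD45B, GADD45G, RGS1, RGS2 and PPP1R15A. Over both lists together 23 of 48 tested genes were called (47.9%). Both lists were drawn up with the trend of such genes in these pigs known, so the counts describe the lists and are no independent evidence of their direction.

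ZFP36, which binds AU-rich messages such as that of TNF and has them degraded, was at 26.49, 29.5 and 38.5 FPKM at 360 days, against 5.85 to 26.46 FPKM (median 12.1). Replicate 1 exceeded the highest of the others by a narrow margin, and the log2 fold change was 1.52 ± 0.203 (adjusted p = 0.00174; chromosome 6, 48052137 to 48066501). BTG2, an antiproliferative factor that recruits deadenylases, was at 71.8, 57.4 and 73.8 FPKM against 15.6 to 56.3 (log2 fold change 1.24 ± 0.174, adjusted p = 0.00218). The 3 libraries of 360 days had no overlap with the others in either gene. SOCS3, the inhibitor of signalling by the IL-6 family and by leptin, had the largest fold change of the list, at 15.6, 24.0 and 38.2 FPKM against 2.44 to 24.8 FPKM (median 5.27; log2 fold change 2.20 ± 0.341, adjusted p = 0.00372). One library of 300 days was above replicates 1 and 2. DUSP5, a nuclear phosphatase of ERK, was at 2.14, 2.02 and 2.31 FPKM against 0.521 to 1.70 (log2 fold change 1.39 ± 0.222, adjusted p = 0.00399).

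Some inhibitors of the same pathways were not called by edgeR. DUSP1, a phosphatase of the stress kinases, had a log2 fold change of 1.03 with an adjusted p of 0.0669 but was called by DESeq2, and SOCS1 and DUSP4 had -0.07 and -0.14. ZFP36 and BTG2 were called whichever library was left out, and the other 9 were not called in every such fit. SOCS3, DUSP5 and GADD45G lost the call only without 360 days replicate 3 (SOCS3: adjusted p = 0.0699). GADD45B lost it without 360 days replicate 2 or 3. NFKBIZ, SIK1, RGS1, RGS2 and PPP1R15A, close to a threshold, were called in 13, 14, 3, 5 and 8 of the 18 fits. Without the 7 libraries low in Y-linked RNA 7 of the list were called.

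**Figure D3:**
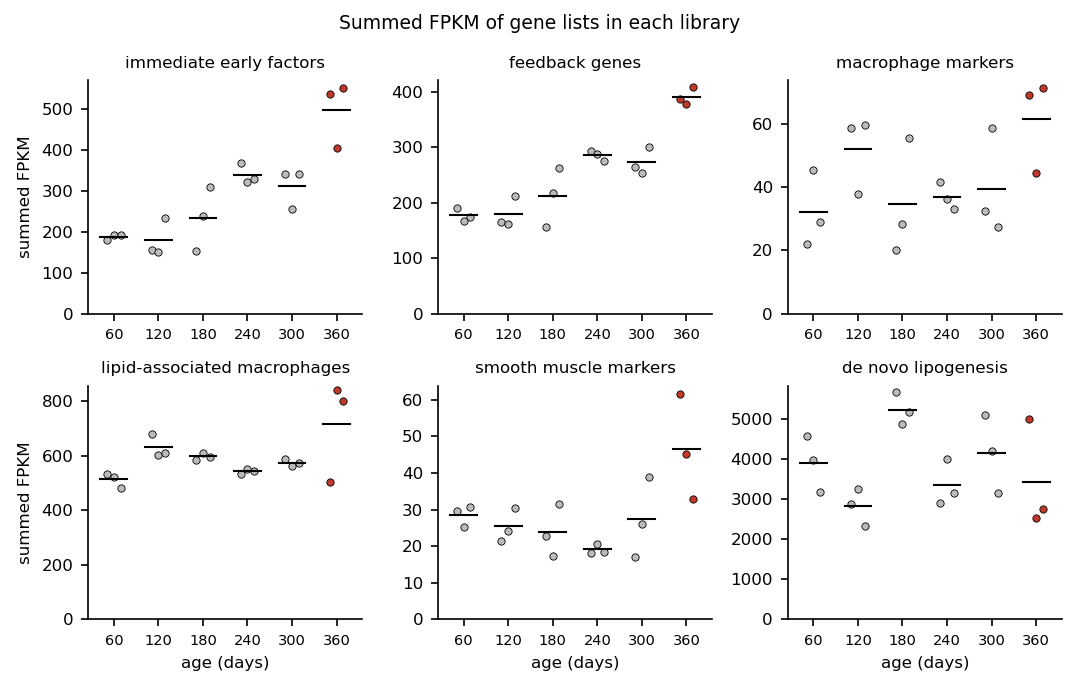
Summed FPKM of 6 gene lists against age in days, with a point for each library and a bar for the stage mean (n = 3 per stage); libraries of 360 days are red. For the immediate early factors and the feedback genes the red points lie above all others; for the macrophage markers, lipid-associated macrophage genes, smooth muscle markers and lipogenic genes they overlap with earlier stages.

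Among cytokines and chemokines, 4 of 24 tested genes were called higher (16.7%, against 1.28% of all loci). A fold change above 0 was found in 15 (50.5% over all loci), with a median of 0.21. The 4 were IL6, OSM, CSF1 and CXCL2. IL6, a cytokine that adipose tissue releases, was at 3.26, 2.70 and 3.26 FPKM at 360 days, against 0.405 to 2.87 FPKM (median 0.803; log2 fold change 1.90 ± 0.309, adjusted p = 0.00453). One library of 300 days exceeded replicate 2, and without replicate 3 the adjusted p was 0.0517. CSF1, the growth factor of macrophages, was at 12.4, 9.05 and 10.5 FPKM against 2.78 to 9.74 (median 5.77), with a log2 fold change of 1.11 ± 0.115 (adjusted p = 0.000434; chromosome 4, 110176300 to 110200939). Its stage means were 3.03, 4.14, 5.53, 7.80, 7.61 and 10.6 FPKM from 60 to 360 days, so most of the difference from 60 days was already there by 240 days. OSM, a cytokine of the IL-6 family, was low at 0.818, 0.623 and 1.79 FPKM against 0.035 to 1.21, and lost its call without replicate 3 (log2 fold change 1.27, adjusted p = 0.29). CSF1 and CXCL2 were called whichever library was left out, and 3 genes of the list were called without the 7 libraries low in Y-linked RNA. The CXCL2 locus carries a further gene name and its reads cannot be told apart. CXCL9, CXCL10 and CCL5, chemokines that draw T cells, had log2 fold changes of -1.26, -0.93 and -0.43 and none passed the test (adjusted p = 0.293 to 0.499).

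Genes of macrophages mostly had fold changes above 0, but few passed the test. Of 22 resident macrophage genes 19 had a fold change above 0 (median 0.72) and 1, TYROBP, was called (4.55%); DESeq2 called 4, with CD14, F13A1 and VSIG4. Of 21 genes of lipid-associated macrophages, the cells that surround and digest dying adipocytes, 19 were above 0 (median 0.58) and 2, GPNMB and MSR1, were called (9.52%). Over all loci tested the shares were 50.5% above 0 and 1.28% called. All 7 of the markers CD163, MRC1, CD14, CSF1R, C1QA, C1QB and C1QC were above 0, edgeR called none (1, CD14, by DESeq2 and at the unadjusted p), and their sum was 69.2, 44.5 and 71.5 FPKM at 360 days against 20.2 to 59.8 FPKM (median 36.2). In bulk tissue, more cells of a type and more RNA per cell cannot be told apart. GPNMB, a lysosomal glycoprotein, differed widely among the 3 pigs, at 11.7, 50.5 and 21.4 FPKM against 4.48 to 43.6 FPKM (log2 fold change 1.33 ± 0.288, adjusted p = 0.0199), and its mean at 120 days (29.7 ± 13.2 FPKM) was as high as that at 360 days (27.9 ± 20.2). TYROBP, the signalling adaptor of TREM2, was at 6.22, 7.86 and 12.8 FPKM against 2.12 to 8.52 (log2 fold change 1.17 ± 0.275, adjusted p = 0.0291). CTSD and CTSZ, lysosomal proteases, had log2 fold changes of 0.91 and 0.93 and passed on the adjusted p alone (0.00783 and 0.0136). Without 360 days replicate 3 no gene of either list was called and the medians were 0.49 and 0.58, without replicate 2 neither GPNMB nor MSR1 was called, and without the 7 libraries low in Y-linked RNA the medians were 0.55 and 0.44 with 0 called.

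Other immune lists had few or no calls and differed in direction. Across all loci tested, 1.28% were called and 50.5% had a fold change above 0. T and NK cell genes had a median log2 fold change of -0.49, with 4 of 12 above 0 and 0 called. Among them CD247 shares its locus with CREG1 and CD3G with UBE4A, and the reads cannot be told apart. Interferon-stimulated genes had a median of -0.14, with 4 of 24 above 0 and 0 called. All 16 antigen presentation genes were above 0, at a median of 0.20, and none was called. At an unadjusted p under 0.05 with the same fold change 3 T and NK cell genes passed, and DESeq2 called 2 as lower, GZMA and GNLY of the cytotoxic granules (edgeR log2 fold changes of -2.38 and -1.20, adjusted p = 0.0982 and 0.138); for the interferon and antigen presentation lists both counts were 0. CSF3R, the receptor that drives neutrophil production, was called among 6 neutrophil and mast cell genes, all above 0 (median 0.66), but only in 5 of the 18 fits that left out a library. C5AR1, the receptor of the complement fragment C5a, was the only gene that edgeR called of 22 in the complement list (16 above 0, median 0.43), at 4.16, 5.89 and 5.79 FPKM against 1.22 to 4.14 (log2 fold change 1.14 ± 0.249, adjusted p = 0.0212). It lost the call without 360 days replicate 2 or 3. CD83, a surface protein of activated antigen-presenting cells, lay above all others at 3.19, 2.45 and 2.74 FPKM against 0.54 to 2.17 (log2 fold change 1.19 ± 0.204, adjusted p = 0.0062), and lost the call only without replicate 3.

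Several secreted proteins and hormones were among the called genes. INHBB, the beta B subunit of activin B and inhibin B, was at 5.52, 4.19 and 3.995 FPKM at 360 days, against 0.138 to 3.20 FPKM (median 1.003), with no overlap (log2 fold change 2.14 ± 0.338, adjusted p = 0.00384; chromosome 15, 30996208 to 31004861). Its stage means rose at each step, with 0.448, 0.615, 0.934, 2.31, 2.85 and 4.57 FPKM from 60 to 360 days, and it was called whichever library was left out. LEP, the gene of leptin, gave a different course. It was at 15.01, 16.6 and 24.1 FPKM at 360 days against 0.663 to 23.3 FPKM (log2 fold change 1.90 ± 0.362, adjusted p = 0.0112), but averaged 18.6 ± 4.84 FPKM at 360 days, 14.8 ± 7.01 at 300 days, 19.7 ± 3.17 at 240 days and 8.74 ± 3.90 at 180 days (SD, n = 3 each). It lost the call without 360 days replicate 3 (adjusted p = 0.128), and its log2 fold change was -0.01 over 240 days, against 4.30 over 60 days. The contrast with the mean of all earlier stages thus rests for LEP on its lower levels at 60, 120 and 180 days (adjusted p = 0.24 against 180 days alone), and without 60 days it was not called (adjusted p = 0.144).

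PHLDA2, which in mouse and human is an imprinted gene known as a brake on placental growth, lay above all others at 360 days. It was at 2.44, 6.21 and 4.90 FPKM against 0.325 to 2.10 FPKM (median 1.01), with log2 fold changes between 1.87 and 2.50 over the single stages and 2.15 ± 0.392 over their mean (adjusted p = 0.00898). Taken alone, the differences from 60 and 120 days passed the test (adjusted p = 0.0182 and 0.0463) and those from 180, 240 and 300 days did not (adjusted p = 0.0939, 0.311 and 0.432). HBEGF, a ligand of the EGF receptor, was at 2.52, 1.85 and 2.75 FPKM against 0.334 to 1.69 (log2 fold change 1.54 ± 0.185, adjusted p = 0.000855). SPHK1, which makes sphingosine 1-phosphate, was at 2.43, 3.66 and 3.42 FPKM against 0.715 to 2.22 (log2 fold change 1.31 ± 0.192, adjusted p = 0.00293). None of the 3 genes overlapped with the other stages, which was a condition for naming them. HBEGF and SPHK1 were called whichever library was left out, and PHLDA2 lost the call without replicate 3 (adjusted p = 0.0748). SPHK1 stood alone in its list, in which 17 of 29 genes of sphingolipid metabolism were above 0 (median 0.12). PAPPA, STC1 and STC2 of the IGF axis were called, but PAPPA rested on replicate 1 (4.58 FPKM, against 0.947 and 1.08 in replicates 2 and 3) and was not called without it (log2 fold change 0.46). The PAPPA locus carries a further gene name. STC1 and STC2 were called in 2 and 5 of the 18 fits that left out a library. SFRP2, an antagonist of Wnt ligands, was at 12.7, 4.91 and 5.09 FPKM against 1.26 to 6.15 (log2 fold change 1.44 ± 0.286, adjusted p = 0.0135), and ADAMTS4, a protease of proteoglycans, at 13.3, 28.9 and 23.5 FPKM against 2.57 to 13.5 (log2 fold change 1.61 ± 0.317, adjusted p = 0.0129). SFRP2 lost the call without 360 days replicate 1 or 3, and ADAMTS4 without 360 days replicate 2 or 3.

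Few genes of vessels were called. In the endothelial list 22 of 25 genes were above 0 (median 0.38; 50.5% over all loci) and 1, SELP, was called. PECAM1 of this list lies at a locus that carries further gene names. SELP, the P-selectin that tethers leukocytes, was even among the 3 pigs at 3.11, 3.52 and 3.16 FPKM, against 0.601 to 2.77 FPKM (median 1.25; log2 fold change 1.31 ± 0.269, adjusted p = 0.0161). Its lowest stage was 240 days (0.802 ± 0.241 FPKM), and it lost the call without 360 days replicate 2 or 3. Of 19 genes of smooth muscle and pericytes 15 were above 0 (median 0.32) and 2, TAGLN and ACTA2, were called (10.5%, against 1.28% of all loci). TAGLN, an actin-binding protein of contractile cells, was at 26.8, 17.7 and 19.6 FPKM against 5.65 to 17.3 (median 8.61; log2 fold change 1.26 ± 0.243, adjusted p = 0.0123), and lost the call without 360 days replicate 3 (adjusted p = 0.0776). ACTA2, smooth muscle actin, was at 30.0, 19.3 and 11.02 FPKM against 6.20 to 17.3, and was not called without 360 days replicate 1 (log2 fold change 0.66) or 300 days replicate 1. CCN1, a matrix protein induced by stretch and by serum, was the only gene that edgeR called among 32 of fibrillar collagen and interstitial matrix, at 16.7, 8.51 and 12.6 FPKM against 3.52 to 11.1 (log2 fold change 1.28 ± 0.166, adjusted p = 0.00133), and was called whichever library was left out. DESeq2 called 2 genes of the list, the other being CCN2, a relative of CCN1, and edgeR called 4 without 240 days replicate 1. The median of that list was 0.14, and -0.09 without 360 days replicate 3 or -0.08 without the 7 libraries low in Y-linked RNA. By stage, its median was 0.34 over 60 days, -0.80 over 120 days, 0.30 over 180 days, 0.32 over 240 days and 0.11 over 300 days. The summed level of the list averaged 4570, 7660, 3910, 2660, 3100 and 2890 FPKM from 60 to 360 days. COL3A1, among its most abundant members, was at 1020, 774 and 489.5 FPKM against 495.6 to 2927 (log2 fold change -0.68, adjusted p = 0.163), at a locus that carries a further gene name.

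Few metabolic genes of the adipocyte were called. Of 23 genes of de novo lipogenesis 7 were above 0 (median -0.12) and 1, SLC25A1, was called lower (4.35%, against 1.28% of all loci called either way). None of 25 genes of triglyceride assembly, 20 of fatty acid uptake, 29 of lipolysis, 29 of fatty acid oxidation, 35 of the respiratory chain, 27 of cholesterol synthesis or 25 adipogenic transcription factors was called, with medians between -0.13 and 0.11. In these 7 lists 1 gene, PCK1, which supplies glycerol for triglyceride, was called lower by DESeq2 and passed at the unadjusted p (edgeR log2 fold change -1.95 ± 0.688, adjusted p = 0.12). FASN, the fatty acid synthase, was at 1522, 681 and 1059 FPKM at 360 days against 866 to 1963 FPKM (log2 fold change -0.22, adjusted p = 0.584), and SCD, the stearoyl-CoA desaturase, at 2537, 1317 and 1046 FPKM against 633 to 2814 (log2 fold change 0.27, adjusted p = 0.589). In both genes replicate 1 was above the other pigs of its stage, and only replicate 2 for FASN lay outside the range of the earlier stages. Of the 35 respiratory chain genes 9 were above 0 (median -0.13), and of the 103 tested genes of the KEGG pathway oxidative phosphorylation 35 (median -0.10), with 0 called in either by edgeR or DESeq2, and 1 of the pathway at the unadjusted p. Without 360 days replicate 3 the respiratory chain median was -0.23.

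**Figure D4:**
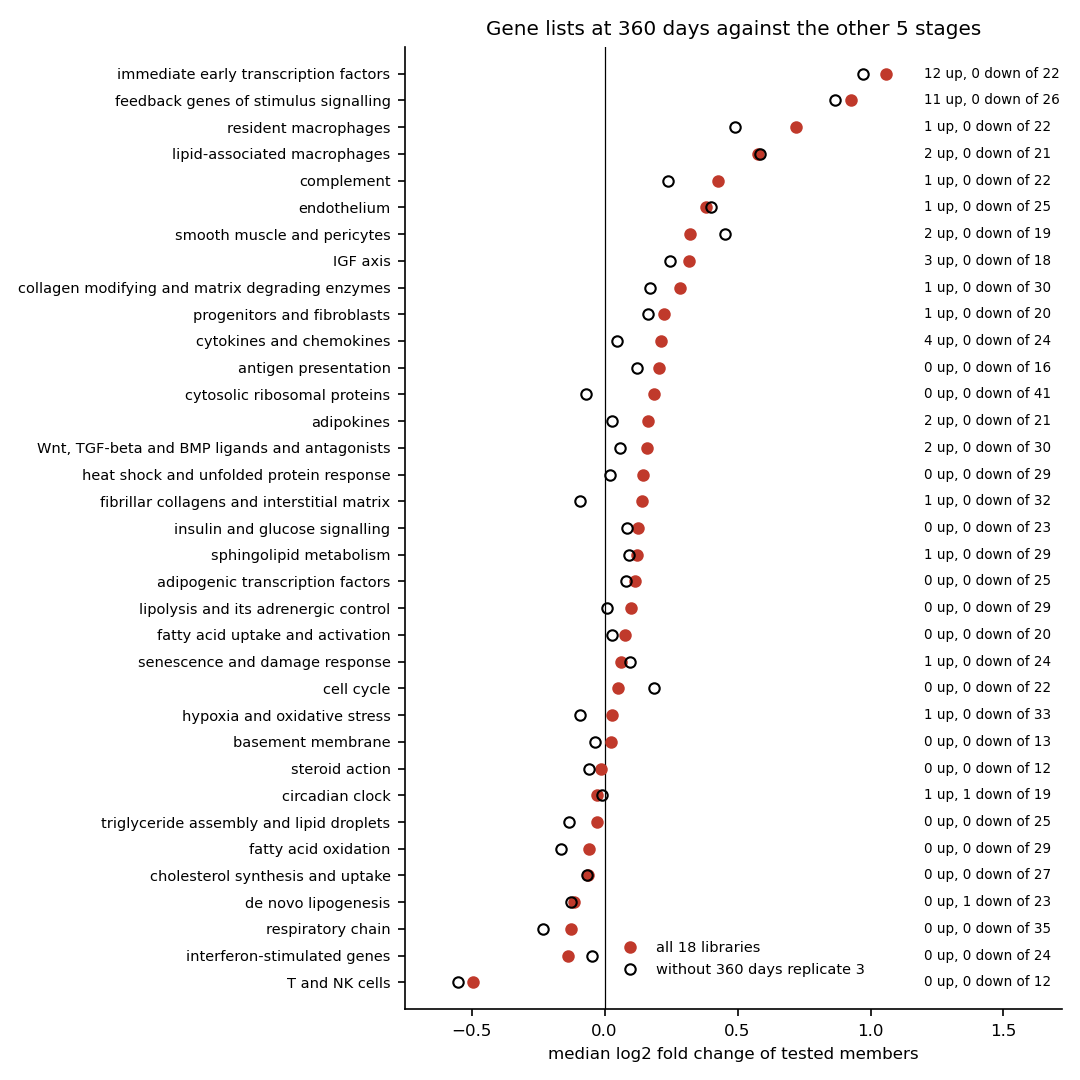
Median log2 fold change of 360 days minus the mean of the other 5 stages over the tested members of each gene list with at least 10 tested members, skeletal muscle left out; filled points use all 18 libraries and open points leave out 360 days replicate 3, and the text at the right gives the members called higher (up) and lower (down). Immediate early factors and feedback genes stand at 1.06 and 0.93, above resident macrophages at 0.72, while the lists of lipid metabolism lie near 0.

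The loci called lower were fewer and less stable. In 38 of the 59, 360 days replicate 3 had the lowest FPKM of the 3 libraries of its stage. FPKM are not TMM-scaled, and over all 19470 loci tested this library was the highest of the 3 in only 4375. In how many of all loci it was the lowest was not counted, so the 38 have no background share. Without 360 days replicate 3, 1 of the 59 remained called. All 59 stayed lower in that fit, which shares its other libraries with the main fit (median log2 fold change -1.29, against -1.42 with all libraries). Of the 59, 32 had no transcript type and 25 were protein coding. SLC25A1, the carrier that exports citrate from mitochondria for lipogenesis, was at 6.60, 3.19 and 4.39 FPKM at 360 days, against 6.33 to 21.1 FPKM (median 10.3; log2 fold change -1.10 ± 0.254, adjusted p = 0.027). AACS, which activates acetoacetate for the synthesis of lipids, was at 7.15, 3.67 and 4.90 FPKM against 7.76 to 18.6 (median 10.6), below all others (log2 fold change -1.07 ± 0.23, adjusted p = 0.0199). CDO1, the dioxygenase that degrades cysteine, was at 5.30, 9.71 and 5.31 FPKM against 11.4 to 29.4 (median 13.8), also below all others (log2 fold change -1.16 ± 0.297, adjusted p = 0.0412). For AACS and CDO1 the lack of overlap was a condition for naming them. CDO1 had log2 fold changes between -0.93 and -1.41 over the single stages, none of them past the threshold alone.

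OGDHL, a brain-type relative of the 2-oxoglutarate dehydrogenase, was at 0.429, 0.356 and 0.303 FPKM against 0.475 to 1.81 (log2 fold change -1.39 ± 0.337, adjusted p = 0.0331). It was not called without any 1 of the 3 libraries of 360 days. ANKEF1, a protein with ankyrin repeats and an EF hand, was at 0.564, 0.727 and 0.431 FPKM against 0.938 to 2.97 (log2 fold change -1.61 ± 0.326, adjusted p = 0.0153), and lost the call without replicate 3 (adjusted p = 0.119). OXR1, which protects cells from oxidative damage, was at 1.96, 2.15 and 1.02 FPKM against 2.39 to 9.03 (log2 fold change -1.19 ± 0.19, adjusted p = 0.00399), and its stage means over the series were 7.57 ± 1.37 FPKM at 60 days, then 5.04, 3.78, 2.84 and 2.89 FPKM, and 1.71 ± 0.607 FPKM at 360 days (SD, n = 3). Without 360 days replicate 3 its log2 fold change was -0.97, under the size required for a call. A total of 5 called loci carry the name OXR1, all lower, on neighbouring stretches of chromosome 4; they are fragments of 1 gene in the assembly and count as 1 gene. The 1 locus that remained called lower without replicate 3 was among these fragments (0.215, 0.222 and 0.0852 FPKM against 0.334 to 1.68, log2 fold change -1.91 ± 0.283, adjusted p = 0.00293). CYP2A19, a cytochrome P450 whose locus carries a further name, and TSPYL4 had log2 fold changes of -1.59 and -1.01 (adjusted p = 0.0448 and 0.0237), close to a threshold, and were called in 5 and 9 of the 18 fits. AACS and SLC25A1 lost the call without 360 days replicate 3 at almost unchanged log2 fold changes (-1.09 and -1.11, adjusted p = 0.116 and 0.147) and without replicate 2, and CDO1 was called in 8 of the 18 fits.

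**Figure D5:**
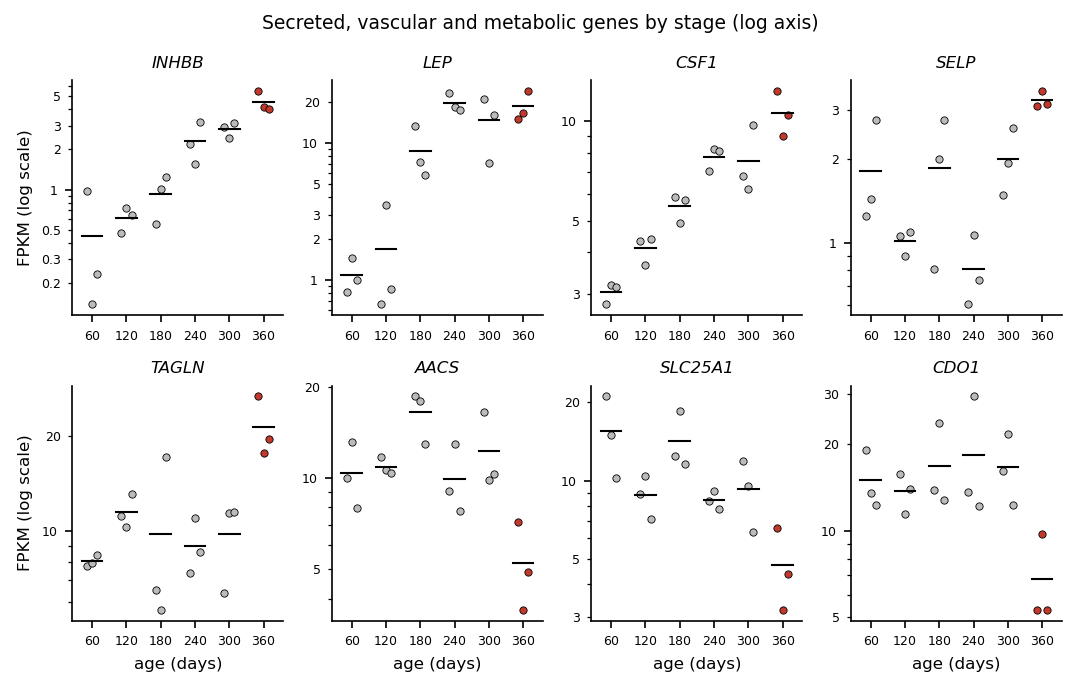
FPKM on a log axis against age in days for 8 secreted, vascular and metabolic genes, with a point for each library and a bar for the stage mean (n = 3 per stage); libraries of 360 days are red. INHBB and CSF1 climb over the stages, LEP is level from 240 days on, SELP and TAGLN are highest and AACS and CDO1 lowest in the 3 red libraries, and SLC25A1 overlaps with an earlier library.

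BHLHE40 and DBP, transcription factors of the circadian clock, were called in opposite directions. BHLHE40, a repressor of clock genes, was at 8.18, 11.5 and 8.16 FPKM at 360 days against 1.22 to 9.91 (log2 fold change 1.08 ± 0.225, adjusted p = 0.0175). The locus shared by DBP and CA11, whose reads cannot be told apart, was at 0.56, 0.362 and 0.443 FPKM against 0.548 to 2.47 (log2 fold change -1.13 ± 0.205, adjusted p = 0.00866). Both lost the call without 360 days replicate 2 or 3, and the other 17 of the 19 clock genes tested were not called (median of the list -0.03). ADM, the vasodilator adrenomedullin, was the only call of 33 genes of hypoxia and oxidative stress, at 22.0, 14.3 and 18.5 FPKM against 5.62 to 14.5 (log2 fold change 1.06 ± 0.146, adjusted p = 0.00218), and fell below the required fold change without 360 days replicate 1 or 3 (log2 fold changes of 0.94 and 0.98).

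Markers of neighbouring tissue were low at 360 days. The 4 tested skeletal muscle markers, summed, were at 1.15, 0.848 and 0.691 FPKM, against 0.732 to 320 FPKM in the other libraries (median 1.68), with MYLPF listed at 0 in all 3 libraries of 360 days. The high values came from single libraries, 320 FPKM in 180 days replicate 1 and 166 in 120 days replicate 2, and edgeR called no muscle gene, with 4 of 17 past the unadjusted p and fold change and 4 called by DESeq2. Both of these libraries were among the 7 low in Y-linked RNA. The part of muscle RNA, of structural RNA in 360 days replicate 3 or of the Y-linked difference in the calls was not tested beyond the fits without those libraries.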

How the data were processed

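Deposited counts and FPKM of 27883 loci were used. Per the labels, the authors cleaned the reads (Cutadapt), aligned them (Hisat2) against the Sus scrofa V11.1 genome (Ensembl V96) and assembled loci with StringTie; per the methods, the authors' FPKM values came from StringTie. How the deposited counts were made by the authors, and whether strand was used, is not given in the sources used here. Raw counts were tested here with edgeR (version 4.0.16, R 4.3.3): TMM scaling, 6 stage groups in 1 quasi-likelihood fit, a 2-sided test and Benjamini-Hochberg adjustment over 19470 loci with at least 0.5 FPKM in 3 or more libraries. A standard error is the absolute log2 fold change divided by the root of F. FPKM describe levels, are not TMM-scaled and served for overlap.

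Total counts were 74077094 to 84236689 per library, and p-values rest on 3 pigs per stage. On simulated counts for this contrast over 19470 loci, 30% of changes of 1, 62% of 1.5, 76% of 2 and 92% of 3 on the log2 scale were called, with 5 false calls. The simulation held no differences among the other stages and no library that stood apart. Its shares and false calls therefore need not hold for the real libraries.

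The members, the 42 lists and the contrast were chosen with earlier results of these data known. Named genes are the called loci with a symbol, a type, at least 1 FPKM and no overlap (up to 15 per direction), every called list member, and, in lists with fewer than 2 calls, the 2 most abundant members. 1 called list member is not reported here. Other genes in the text were chosen after their values were seen. Symbols came from the table, and for 1138 loci from a gene name table and for 584 from RefSeq; 1443 loci carry several names. Alternatives were other filters, scalings and tests (DESeq2 1.42.0, limma 3.58.1 on log2 FPKM with pseudocounts of 0.1, 1 and 0.01, voom), a replicate block, 2 groups, and fits without libraries or without 60 days. Promoter sequences were not used here.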

Additional observations from a re-analysis of the deposited data

How the results depend on the processing

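The 191 higher and 59 lower calls changed with the test, the unit, the grouping and the libraries used, and the cause was not tested. limma on log2(FPKM + 0.1) called 73 higher and 100 lower, where the median of all loci moved to -0.10, with a pseudocount of 1 31 and 7, and with 0.01 74 and 131; voom with library weights called 104 and 12, and 2 groups in place of 6 called 15 and 2. DESeq2 called 245 higher and 164 lower, and the adjusted p alone 604 and 214. Without the 7 libraries low in Y-linked RNA 83 and 14 were called, without 60 days 62 and 13, and without those 7 and 360 days replicate 3 together, a fit chosen after seeing the data, 7 and 1. With each library left out in turn the calls were 42 to 251 higher and 1 to 138 lower: 42 and 1 without 360 days replicate 3, 251 and 138 without 360 days replicate 1, and 39 lower without 120 days replicate 3 or 180 days replicate 2. Of the 250 loci, 24 were called in all of these 18 fits, without the 7 libraries and without 60 days, among them FOSB, MYC, CSRNP1, EGR1, EGR2, ZFP36, BTG2, HBEGF, SPHK1, CCN1 and INHBB.

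Against single stages, with each library left out in turn, the calls were 503 to 1159 for 60 days (995 with all libraries), 97 to 461 for 120 days (397), 1 to 287 for 180 days (122), 0 to 8 for 240 days (0) and 0 to 12 for 300 days (0). The lowest counts for 60 and 180 days came without 360 days replicate 3, and that for 120 days without 120 days replicate 1. For 60 days the fit without its replicate 1 called 642, and for 180 days those without its replicates 1 and 2 called 8 and 7. DESeq2 called 763, 501, 107 and 66 against 120, 180, 240 and 300 days. Replicate numbers did not pair the pigs: residuals of equal numbers correlated at 0.01 on average over 45 pairs, of different numbers at -0.01 over 90 pairs, and 7 of 18 libraries correlated best with their own number. With a replicate block 164 loci were higher and 51 lower.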

Other observations

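The genes in this paragraph were chosen after their values were seen. Several receptors were called higher. OSMR, the receptor subunit of the called cytokine OSM, was at 3.28, 6.35 and 3.16 FPKM at 360 days, against 0.509 to 5.41 FPKM (median 1.17; log2 fold change 1.48 ± 0.36, edgeR adjusted p = 0.0329), at a locus without a transcript type. BDKRB2, the B2 receptor of bradykinin, was at 1.82, 2.33 and 2.54 FPKM against 0.267 to 1.97 (log2 fold change 1.53 ± 0.216, adjusted p = 0.00221) and was called whichever library was left out. TLR2, a receptor of bacterial lipoproteins, was at 2.51, 1.70 and 2.54 FPKM against 0.591 to 2.06 (log2 fold change 1.10 ± 0.22, adjusted p = 0.0138). NOCT, a circadian phosphatase, had 2 called loci, both above all 15 others; the larger was at 7.80, 5.17 and 5.998 FPKM against 1.25 to 5.04 (log2 fold change 1.59 ± 0.201, adjusted p = 0.00125). The locus that carries the precursors of miR-143 and miR-145, microRNAs of smooth muscle, was at 17.0, 10.4 and 15.2 FPKM against 4.32 to 12.1 (log2 fold change 1.13 ± 0.12, adjusted p = 0.000434) and was called whichever library was left out. These values count reads over the whole locus and are not levels of the mature microRNAs. TLR2 and the typed locus of NOCT lost the call without 360 days replicate 3, and OSMR also without 2 other libraries.

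Both glycoprotein hormone receptors called in these data were lower. TSHR, the thyrotropin receptor, which is known on fat cells, was at 0.575, 0.817 and 0.563 FPKM at 360 days, against 0.725 to 2.84 FPKM (median 1.79; log2 fold change -1.27 ± 0.233, adjusted p = 0.00925). LHCGR, the lutropin receptor, was at 0.511, 0.404 and 0.166 FPKM against 0.401 to 2.30 (log2 fold change -1.24 ± 0.322, adjusted p = 0.0435). TSHR lost the call only without 360 days replicate 3, while LHCGR was called in 8 of the 18 fits that left out a library.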
